A study of Homo sapiens with 10 samples.

Results

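The genes of caveolae and of flotillin domains were followed, 10 in all, in PC3 cells treated for 24 h with the LXR agonist GW3965. They were the caveolins CAV1, CAV2 and CAV3, the cavins CAVIN1, CAVIN2 and CAVIN3, the flotillins FLOT1 and FLOT2, and the accessory proteins EHD2 and PACSIN2. All 10 genes were found by symbol among the 62656 genes of the deposited table, and the rule for their choice is their place in caveolae and flotillin domains. PC3 is a human prostate cancer cell line established from a bone metastasis. One group of 5 libraries came from cells given the vehicle DMSO and the other group of 5 from cells given 1 µM of GW3965, in RPMI-1640 with L-glutamine after a night of starvation. No source used here says whether the 5 libraries of a condition came from separate cultures, so p-values measure the spread between these libraries, which may be technical. The question was at which level PC3 cells hold the RNAs of cholesterol-rich membrane domains and whether an activator of the cholesterol sensor LXR changed them.

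Caveolae are small invaginations of the plasma membrane that are rich in cholesterol. Caveolins are inserted into the membrane and bind cholesterol, and cavins coat the invagination from the cytosol. CAVIN1 is needed for caveolae to form, so that cells without it hold caveolin outside caveolae. EHD2, an ATPase, sits at the neck of caveolae and keeps them at the surface, and PACSIN2 is an F-BAR protein that senses or bends the membrane there. Flotillins belong to another family, the SPFH domain proteins, and form scaffolds in cholesterol-rich domains that are not caveolae. PC3 cells are known in the field as a line with caveolin-1 and without cavin-1. LXRs are nuclear receptors for oxidised cholesterol that switch on cholesterol efflux.

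The values were RPKM, reads per kilobase of gene, scaled between libraries by the authors. The reads behind them could be recovered as whole numbers, and the libraries held from 30430546 to 41637633 reads. GW3965 libraries 1 and 2 and DMSO library 1 stood apart from the other libraries on the first principal component of the reads, which held 41.4% of the variance. Their scores lay between -19.7 and -17.7. DMSO library 4 lay at the other end with 21.8, the largest absolute score, and is not among the 3 libraries called apart here. The treatment could be read from the LXR target genes, all 4 of which were called higher with GW3965. ABCA1, a cholesterol exporter, rose from 3.43 to 16.5 RPKM, and ABCG1, its partner in efflux, rose from 1.57 to 7.06 RPKM (limma, adjusted p = 0.00063 and 0.000124). SREBF1, the activator of lipid synthesis genes, and MYLIP, a ligase that degrades the LDL receptor, each rose by a log2 fold change of 0.74 (limma, adjusted p = 0.00362 and 0.00714). The calls of ABCA1 and ABCG1 were made in all 26 alternative settings. SREBF1 and MYLIP missed the threshold with a replicate block (limma, adjusted p = 0.0643 and 0.0724) and without the 3 libraries that stood apart (limma, adjusted p = 0.0897 and 0.101). The epithelial label was read against 5 markers, of which the keratins KRT8, KRT18 and KRT19 had DMSO means of 36.8, 49.8 and 140.1 RPKM, EPCAM 1.57 and CDH1 0.249. Of the prostate luminal markers, KLK3 had no read in any library.

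**Figure D1:**
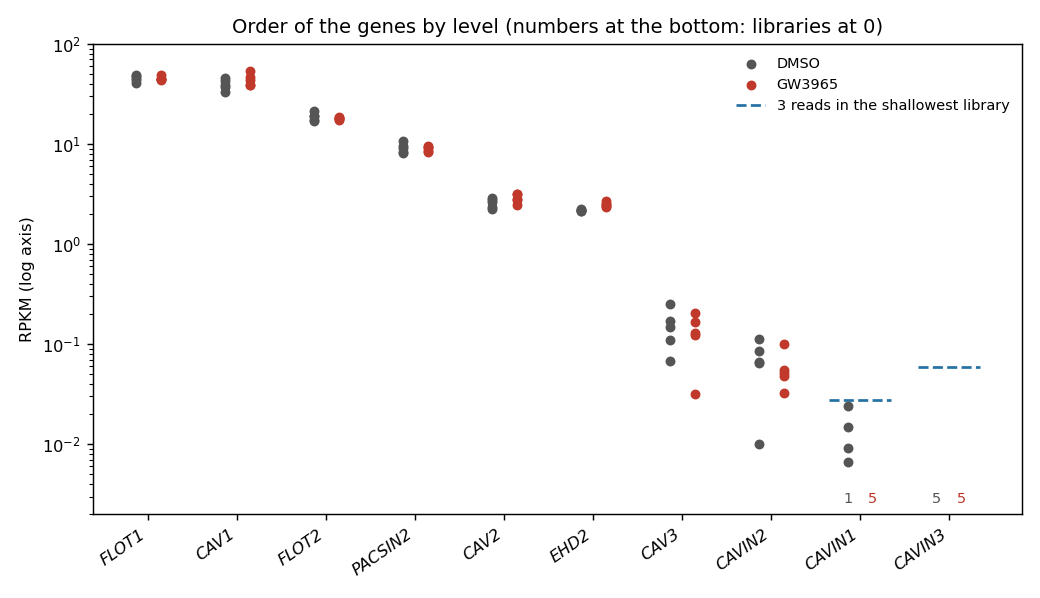
RPKM of each gene in each library on a log axis, with genes in the order of their DMSO means, DMSO libraries in grey and GW3965 libraries in red. Dashed lines give the RPKM that 3 reads of CAVIN1 and CAVIN3 are worth in DMSO library 3, where this value is highest. The key calls this library the shallowest, though GW3965 library 1 held fewer reads. The numbers at the bottom count libraries at 0. FLOT1 and CAV1 stand at the top with 33.5 to 53.5 RPKM, while all CAVIN1 and CAVIN3 values lie below their dashed lines.

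PC3 cells held abundant RNA of caveolin-1 and of both flotillins and next to none of the cavins. In the DMSO libraries, FLOT1 had a level of 45.4 ± 3.36 RPKM (SD, n = 5), CAV1 39.6 ± 4.72 and FLOT2 18.8 ± 1.72. The membrane-bending PACSIN2 had a level of 9.21 ± 1.09 RPKM, the caveolin-1 partner CAV2 2.57 ± 0.272 and the neck protein EHD2 2.18 ± 0.0538. The muscle caveolin CAV3 had a level of 0.15 ± 0.07 RPKM, CAVIN2 0.0676 ± 0.0373 and CAVIN1 0.011 ± 0.00915, and CAVIN3 was at 0 in all 10 libraries. Averaged over all libraries, FLOT1 lay above 95.3% of the 20402 genes that reached a mean of 0.5 RPKM, CAV1 above 94.9% and FLOT2 above 88.2%. PACSIN2 lay above 76.8% of these genes, CAV2 above 46.6% and EHD2 above 43.0%.

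The levels of 7 neighbouring pairs were compared within the libraries by a two-sided exact sign-flip permutation test. It ran over all 1024 sign patterns of the log2 RPKM differences, with Benjamini-Hochberg adjustment. The order of the genes was itself taken from the DMSO means of these libraries. The p-values therefore describe how steady each gap was over the libraries and are no independent support for the order. FLOT1 exceeded CAV1 in 7 of 10 libraries by a mean log2 difference of 0.12, which missed the threshold (exact permutation test, p = 0.0449, adjusted p = 0.0508). The gap was 0.20 in the DMSO libraries and 0.04 in the GW3965 libraries, and this change of the gap was not tested. CAV1 exceeded FLOT2 by 1.18, FLOT2 exceeded PACSIN2 by 1.02, PACSIN2 exceeded CAV2 by 1.74 and EHD2 exceeded CAV3 by 4.24 on the log2 scale, each in 10 of 10 libraries (exact permutation test, p = 0.00195, the smallest it can give, adjusted p = 0.00342). CAV2 exceeded EHD2 in 9 of 10 libraries by 0.22 (exact permutation test, adjusted p = 0.00547). CAV3 exceeded CAVIN2 in 8 of 10 libraries by 1.21, but both rested on few reads and the difference missed the threshold (exact permutation test, p = 0.0508, adjusted p = 0.0508). With a pseudocount of 1 RPKM, the adjusted p was 0.0469 for FLOT1 over CAV1 and 0.0342 for CAV3 over CAVIN2.

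**Figure D2:**
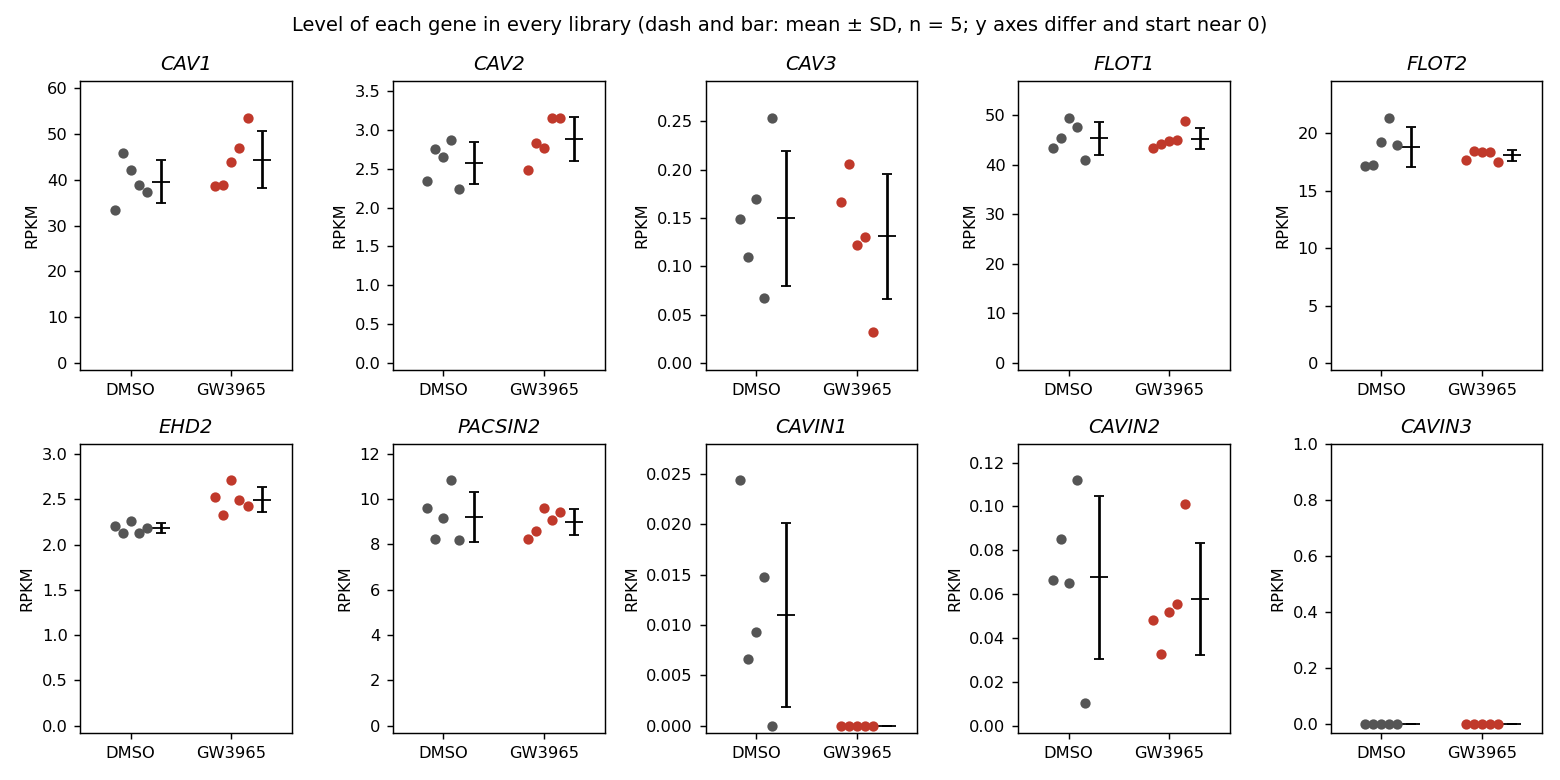
RPKM of each of the 10 genes in every library, 1 panel per gene with its own linear axis from 0, DMSO in grey and GW3965 in red, each dash and bar giving the mean ± SD of 5 libraries. EHD2 is the panel in which the conditions do not overlap, with GW3965 libraries at 2.33 to 2.71 and DMSO libraries at 2.13 to 2.26. CAVIN1 does not exceed 3 reads in any library, and its 5 GW3965 libraries and DMSO library 5 are at 0.

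CAV1 (ENSG00000105974, plus strand of chromosome 7, 116524785 to 116561184, GRCh38) encodes the main structural protein of caveolae outside muscle. The DMSO libraries 1 to 5 had 33.5, 45.9, 42.2, 39.0 and 37.3 RPKM, and the GW3965 libraries 1 to 5 had 38.6, 38.8, 43.8, 47.0 and 53.5 RPKM. The conditions overlapped, since 3 DMSO libraries lay above the lowest GW3965 library. The lowest CAV1 level of all belonged to DMSO library 1, and GW3965 libraries 1 and 2 were the lowest of their condition. The means were 39.6 and 44.3 RPKM, a log2 fold change of 0.16 (SE 0.11, 95% interval from -0.08 to 0.40), which did not pass the test (limma, adjusted p = 0.844). Without the 3 libraries that stood apart it was 0.23 (SE 0.09, limma, unadjusted p = 0.0424, adjusted p = 0.472). With the scores of the libraries on that component as a covariate it was 0.19 (SE 0.08, limma, unadjusted p = 0.0442, adjusted p = 0.384). An unadjusted p under 0.05 was reached by 2044 of 20188 tested genes without the 3 libraries and by 2532 of 20402 with the covariate. Leaving out single libraries moved the CAV1 log2 fold change in both directions. It fell to 0.09 without GW3965 library 5 (limma, unadjusted p = 0.385) and to 0.10 without DMSO library 1 (limma, unadjusted p = 0.353). The highest such value was 0.22 without DMSO library 2 (limma, unadjusted p = 0.0737). Each CAV1 value rested on 4469 to 7518 reads.

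CAV2 (ENSG00000105971, plus strand, 116287380 to 116508541) lies beside CAV1 on chromosome 7, and the annotated start of CAV1 is 16244 bases from its annotated end. Caveolin-2 forms hetero-oligomers with caveolin-1 and depends on it to leave the Golgi. CAV2 had 2.34, 2.76, 2.65, 2.88 and 2.24 RPKM in DMSO libraries 1 to 5 and 2.49, 2.83, 2.77, 3.16 and 3.16 RPKM in GW3965 libraries 1 to 5. The highest values were those of GW3965 libraries 4 and 5, and the conditions overlapped. The log2 fold change was 0.16 (SE 0.09, 95% interval from -0.04 to 0.36) and did not pass the test (limma, adjusted p = 0.809). Without the 3 libraries that stood apart it was 0.20 (SE 0.10, limma, adjusted p = 0.582).

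The level of CAV2 was 6.53 ± 0.626% of that of CAV1 in the DMSO libraries and 6.54 ± 0.523% in the GW3965 libraries (SD, n = 5), with a range from 5.90 to 7.38% over all 10. The log2 ratio of CAV2 to CAV1 differed between conditions by less than its spread (difference -0.0027, exact permutation test, p = 0.976). It and the flotillin ratio were the 2 ratios compared, and the adjusted p over both was 0.976 for this one. CAV1 and CAV2 values come from the same libraries, so their levels share library and depth.

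CAV3 (ENSG00000182533, plus strand of chromosome 3, 8733800 to 8841808) encodes the caveolin of muscle. It had 10, 9, 10, 5 and 16 reads in DMSO libraries 1 to 5 and 11, 16, 9, 9 and 2 reads in GW3965 libraries 1 to 5. These made 0.0317 to 0.254 RPKM, with both conditions spread over nearly the whole range. The totals were 50 reads with DMSO and 47 with GW3965, and no difference between conditions was detectable at this depth (exact permutation test, p = 0.675). CAV1 had at least 4469 reads in every library, and the likeness of the coding sequences matters for the few of CAV3. No stretch of 50 bases, the read length, of an annotated CAV1 or CAV3 transcript (GENCODE 29) occurs exactly in a transcript of any other gene. The closest pair of 50-base coding stretches of the 2 genes differs at 6 bases, against 16 for CAV1 and CAV2 and 13 for CAV2 and CAV3. The pair is shown because it is where reads of the abundant gene come nearest to the rare one. It comes from exon 3 of CAV1 (chr7:116559126-116559175, plus strand) and exon 2 of CAV3 (chr3:8745706-8745755, plus strand) of GRCh38, and the bases that differ are in capitals.
CAV1: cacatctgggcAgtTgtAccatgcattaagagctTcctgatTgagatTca
CAV3: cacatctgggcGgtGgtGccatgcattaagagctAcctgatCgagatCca
The annotated span of CAV3 also overlaps SSUH2 (0.0608 RPKM), the oxytocin receptor gene OXTR (4.54 RPKM) and the DNA repair gene RAD18 (8.07 RPKM), all on the other strand and with no shared exon base. The library kit keeps strand, and whether counting used it is not given in the sources used here. The part of these neighbours in the CAV3 reads was not tested.

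The cavins were the genes with the fewest reads. CAVIN1 (ENSG00000177469, minus strand of chromosome 17, 42402452 to 42423517), whose product cavin-1 is the coat protein that caveolae require, had 3, 1, 1, 2 and 0 reads in DMSO libraries 1 to 5 and no read in the 5 GW3965 libraries. No library held more than 3 reads, so neither a fold change nor a test is given for it. In each of the 6 libraries with no CAVIN1 read, CAV1 was at least 1440.4-fold above the level that 3 reads of CAVIN1, the limit that a count of 0 allows, would give there. CAVIN3 (ENSG00000170955, minus strand of chromosome 11, 6318946 to 6320647), which links caveolae to protein kinase C, had no read in any library. A count of 0 allows up to 3 reads, or 0.0423 to 0.0593 RPKM at the exon length of GENCODE 29, and CAV1 was at least 644-fold above that in every library. These limits cover counting error only, since reads without molecular identifiers are not independent molecules.

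CAVIN2 (ENSG00000168497, minus strand of chromosome 2, 191834302 to 191847255) encodes a cavin that helps to recruit cavin-1 and to curve the membrane. It had 7, 11, 6, 13 and 1 reads in DMSO libraries 1 to 5 and 5, 4, 6, 6 and 10 reads in GW3965 libraries 1 to 5. The conditions overlapped, with totals of 38 and 31 reads, and no difference was detectable at this depth (exact permutation test, p = 0.722). The summed level of the 3 cavins was 0.0271 to 0.325% of that of CAV1. The muscle cavin CAVIN4, a gene of a wider list that is named after its values were seen, had DMSO and GW3965 means of 0.303 and 0.354 RPKM on 28 to 51 reads per library.

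Part of the cavin sequence is shared with other genes. Of the 50-base stretches of CAVIN3 transcripts, 28.0% also occur, on the opposite strand, in AC068733.3, a transcript that shares 557 exon bases with it. AC068733.3 had a mean of 0.0107 RPKM. Of the CAVIN2 stretches, 5.82% occur in the antisense gene AC098617.1, which shares 233 exon bases and had a mean of 0.0097 RPKM. Of the CAVIN1 stretches, 3 of 3779 occur elsewhere, all in RRN3P1. Whether the shared stretches kept any reads from being counted for the cavins was not tested.

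EHD2 (ENSG00000024422, plus strand of chromosome 19, 47713343 to 47743134) was the only one of the 10 genes whose conditions did not overlap. It had 2.2, 2.13, 2.26, 2.13 and 2.18 RPKM in DMSO libraries 1 to 5, and 2.52, 2.33, 2.71, 2.49 and 2.42 RPKM in GW3965 libraries 1 to 5. Each GW3965 library exceeded each DMSO library, on 263 to 394 reads. Of the 20402 tested genes, 1.84% had conditions that do not overlap, 1.35% with GW3965 higher and 0.49% with GW3965 lower. The means were 2.18 ± 0.0538 and 2.50 ± 0.14 RPKM (SD, n = 5), a level higher by 14.4% with GW3965. The log2 fold change was 0.18 (SE 0.06, 95% interval from 0.05 to 0.32), with an unadjusted p of 0.0111 that did not pass after adjustment over all tested genes (limma, adjusted p = 0.479). By unadjusted p it was number 475 among the tested genes, of which 6.99% had an unadjusted p under the same threshold of 0.05. Under the 26 alternative settings the log2 fold change lay between 0.14 and 0.21, and the unadjusted limma p lay between 0.00587 and 0.0339 and the adjusted p between 0.20 and 0.751. Without the 3 libraries that stood apart it was 0.21 (SE 0.08, limma, adjusted p = 0.407).

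PACSIN2 (ENSG00000100266, minus strand of chromosome 22, 42835412 to 43015145) had 9.61, 8.24, 9.17, 10.8 and 8.18 RPKM in DMSO libraries 1 to 5 and 8.25, 8.60, 9.59, 9.10 and 9.42 RPKM in GW3965 libraries 1 to 5. The highest and the lowest value both belonged to DMSO libraries. The log2 fold change was -0.03 (SE 0.08, 95% interval from -0.21 to 0.15) and did not pass the test (limma, adjusted p = 0.979), and it was 0.05 without the 3 libraries that stood apart. ARFGAP3, a regulator of Golgi traffic with a mean of 10.8 RPKM, overlaps PACSIN2 on the same strand with 155 shared exon bases. Of the 50-base stretches of PACSIN2 transcripts, 107 of 4774 occur in ARFGAP3, so that reads from these cannot be assigned to either gene.

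FLOT1 (ENSG00000137312, minus strand of chromosome 6, 30727709 to 30742733) encodes flotillin-1. It had 43.4, 45.4, 49.5, 47.6 and 41.0 RPKM in DMSO libraries 1 to 5 and 43.4, 44.2, 44.9, 45.0 and 49.0 RPKM in GW3965 libraries 1 to 5. The means of 45.4 and 45.3 RPKM gave a log2 fold change of -0.00056 (SE 0.06, 95% interval from -0.14 to 0.14, limma, adjusted p = 0.999). FLOT2 (ENSG00000132589, minus strand of chromosome 17, 28879335 to 28897679) encodes flotillin-2, which assembles with flotillin-1. It had 17.2, 17.3, 19.2, 21.4 and 19.0 RPKM in DMSO libraries 1 to 5 and 17.6, 18.5, 18.4, 18.4 and 17.5 RPKM in GW3965 libraries 1 to 5. The GW3965 values of FLOT2 lay within the DMSO range, and the log2 fold change was -0.05 (SE 0.06, 95% interval from -0.19 to 0.09, limma, adjusted p = 0.943). It was -0.0048 without DMSO library 4, which had the highest FLOT2 level. The level of FLOT2 was 41.5 ± 3.82% of that of FLOT1 with DMSO and 40.0 ± 2.40% with GW3965 (SD, n = 5). The log2 ratio differed by less than its spread (difference -0.05, exact permutation test, p = 0.484, adjusted p = 0.968). No 50-base stretch of a FLOT1 or FLOT2 transcript occurs in a transcript of another gene.

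**Figure D3:**
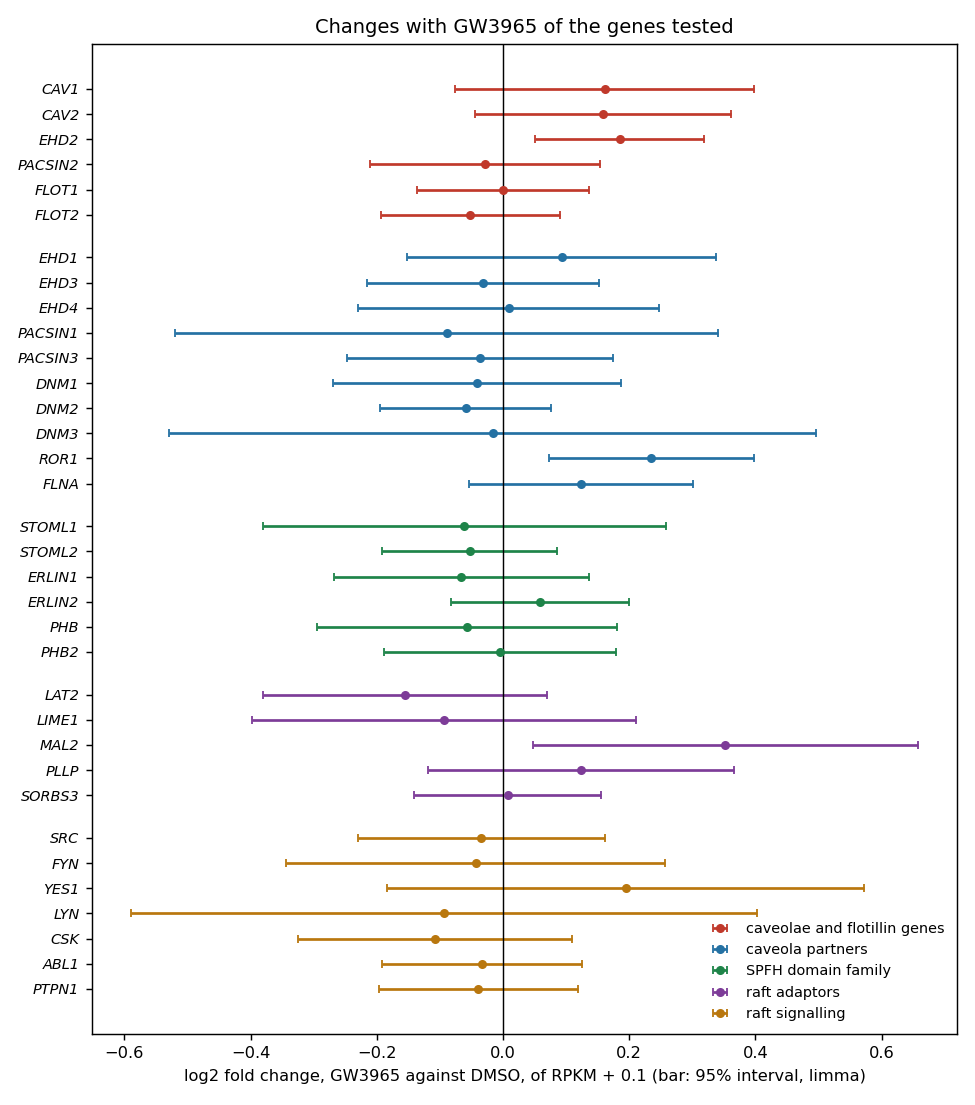
Log2 fold change of RPKM + 0.1 between GW3965 and DMSO for the 6 caveolae and flotillin genes that were tested and for the tested genes of 4 wider lists, with bars for the 95% interval of limma and 1 colour per list. The intervals of EHD2, ROR1 and MAL2 lie above 0, and no gene in the plot passed after adjustment.

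With GW3965, none of the 6 tested genes was called higher or lower (limma, adjusted p under 0.05), while 0.157% of all tested genes were called, 0.147% higher and 0.0098% lower. At an unadjusted p under 0.05 there was 1, EHD2, against 6.99% of all tested genes. On the recovered reads, limma's voom called none of the 6 and had 1 at an unadjusted p under 0.05. Of all 20402 tested genes, voom called 63 and had 1362 at such a p. The log2 fold change was positive for 3 of the 6, CAV1, CAV2 and EHD2, against 51.1% of all tested genes, and their median was 0.08 against 0.0034. Without single libraries the median lay between 0.03 and 0.10. It was lowest, at 0.03, without GW3965 library 5, and was 0.04 without DMSO library 5 and 0.05 without DMSO library 1. It was highest, at 0.10, without DMSO library 3. Of the other 4 genes, CAV3, CAVIN1, CAVIN2 and CAVIN3 lay under the filter of 0.5 RPKM and were not in the fit. The intervals show which changes these libraries could still hide, since the upper limit was 0.40 for CAV1 and 0.14 for FLOT1 on the log2 scale. In RNA of whole cultures, fewer cells that express a gene and less RNA per cell cannot be told apart.

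**Figure D4:**
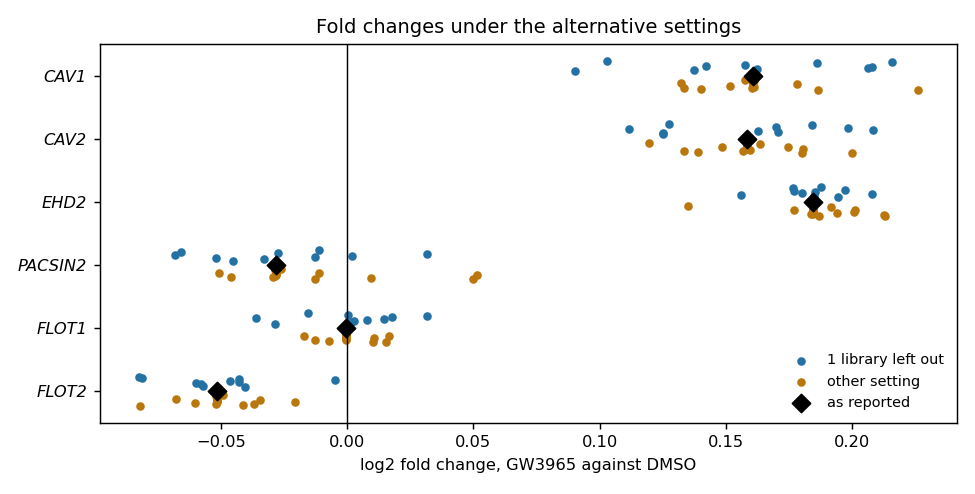
Log2 fold change between GW3965 and DMSO of the 6 tested genes as reported (black) and under 26 alternative settings, 10 of which leave out 1 library (blue) and 16 of which change another choice (orange). CAV1, CAV2 and EHD2 stay above 0 and FLOT2 below 0 in every setting shown, and FLOT1 and PACSIN2 lie on both sides of 0.

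The caveola partners were listed as 12 genes that work at the caveolar neck, in scission or in linking caveolae to other proteins, of which 10 were tested. None was called by limma, against 0.157% of all tested genes, and 4 of 10 had a positive log2 fold change, against 51.1%. The median was -0.02, against 0.0034, and lay between -0.03 and 0.004 without single libraries. One of the 10, the receptor ROR1, which is known to hold cavin-1 and caveolin-1 together, had an unadjusted p under 0.05, against 6.99% of all tested genes. Its means were 3.35 and 3.96 RPKM and its log2 fold change of 0.24 (SE 0.07) was the highest of the list but did not pass (limma, unadjusted p = 0.0087, adjusted p = 0.431). The lowest of the list was PACSIN1, the neuronal relative of PACSIN2, with -0.09 (SE 0.20). In voom the list again had 0 calls and 1 gene at an unadjusted p under 0.05, against 63 and 1362 of all 20402 tested genes.

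Among the relatives of the flotillins, 9 SPFH domain genes, 6 were tested. They had no call and no unadjusted p under 0.05 by limma or by voom, against 0.157% and 6.99% of all tested genes by limma. Their median log2 fold change was -0.05, and lay between -0.07 and -0.01 without single libraries, with the value nearest to 0 without DMSO library 4. ERLIN2, a protein of the endoplasmic reticulum, was the single one of 6 with a positive value, against 51.1% of all tested genes. ERLIN2 had the highest value with 0.06 (SE 0.06) and ERLIN1, its partner there, the lowest with -0.07 (SE 0.09).

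Of 11 raft adaptors, 5 were tested and none was called, against 0.157% of all tested genes. At an unadjusted p under 0.05 was 1 of 5 by limma, against 6.99%, and 1 of 5 by voom, against 1362 of 20402 genes. MAL2, a tetraspan protein of transcytosis in epithelial cells, had the highest log2 fold change with 0.35 (SE 0.14) at means of 34.8 and 44.0 RPKM, and did not pass (limma, unadjusted p = 0.0274, adjusted p = 0.61). Its relative MAL had no read in any library. The lowest was the adaptor LAT2 with -0.16 (SE 0.10), and the median of the list was 0.01, with a range from -0.03 to 0.05 without single libraries. Of 9 raft signalling genes, 7 were tested. They had no call and no unadjusted p under 0.05 by either tool, against 0.157% and 6.99% of all tested genes by limma. Their median was -0.04 and lay between -0.06 and 0.0034 without single libraries. The kinase YES1 had the highest value with 0.19 (SE 0.17), and CSK, the kinase that restrains Src family kinases, the lowest with -0.11 (SE 0.10).

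Caveolae are abundant in endothelial cells, adipocytes and muscle, so markers of these types were read in the same libraries. The 5 endothelial markers summed to 1.57 to 2.41 RPKM with DMSO and 1.26 to 2.24 RPKM with GW3965, nearly all of it KDR and PECAM1, and the defining markers CDH5 and VWF had at most 3 and 6 reads in a library. The 5 muscle markers summed to at most 0.743 RPKM, most of it MYH11 with 251 to 373 reads per library, while MYF5 was at 0. The 4 leukocyte markers summed to at most 0.361 RPKM. The 4 adipocyte markers summed to 9.46 to 11.8 RPKM with DMSO and 13.1 to 18.6 RPKM with GW3965. Nearly all of this was FABP4, a fatty acid carrier, whose means were 10.5 and 15.1 RPKM without overlap of the conditions (1.84% of all tested genes) and whose log2 fold change of 0.51 did not pass (limma, adjusted p = 0.151). FABP4 was called higher with the first principal component of all tested genes as a covariate (limma, adjusted p = 0.011) and with that of the reads (limma, adjusted p = 0.00599). The adipocyte-defining ADIPOQ had at most 8 reads in a library. The part of FABP4-expressing cells in the EHD2 difference was not tested.

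For CAV1 and FLOT1, the genes with the most similar pattern over the 10 libraries were sought among the tested genes by Pearson's r of log2(RPKM + 0.1). For CAV1 these were GADD45B, a stress-induced gene (r = 0.967), IPO5, a nuclear import receptor (r = 0.966), and SH2D4A (r = 0.964). For FLOT1 these were OXA1L, an insertase of the inner mitochondrial membrane (r = 0.966), the mitochondrial ribosome gene MRPS27 (r = 0.95) and the endosomal PLEKHF1 (r = 0.949). These are the highest of 20402 values over 10 libraries that share depth and scaling, and they are a description.

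The sequences before the transcription starts (RefSeq, GRCh38.p14) were compared for 8 of the genes, with CAVIN1 and CAVIN3 not among the entries. They are shown, as 250 bases with CG dinucleotides in capitals, for the abundant CAV1, the nearly silent CAVIN2 and EHD2, the gene whose conditions did not overlap. They are chr7:116524759-116525008 (plus strand), chr2:191847089-191847338 (minus strand) and chr19:47713172-47713421 (plus strand).
CAV1: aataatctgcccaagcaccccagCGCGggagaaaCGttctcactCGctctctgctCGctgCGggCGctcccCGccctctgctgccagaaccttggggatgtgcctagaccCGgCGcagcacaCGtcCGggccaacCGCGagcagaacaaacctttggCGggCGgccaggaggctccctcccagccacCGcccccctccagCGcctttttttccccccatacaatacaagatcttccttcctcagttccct
CAVIN2: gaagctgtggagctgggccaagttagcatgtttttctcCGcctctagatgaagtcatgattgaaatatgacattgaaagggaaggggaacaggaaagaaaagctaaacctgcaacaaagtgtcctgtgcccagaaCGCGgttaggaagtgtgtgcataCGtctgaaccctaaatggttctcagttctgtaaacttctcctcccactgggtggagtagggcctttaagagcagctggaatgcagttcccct
EHD2: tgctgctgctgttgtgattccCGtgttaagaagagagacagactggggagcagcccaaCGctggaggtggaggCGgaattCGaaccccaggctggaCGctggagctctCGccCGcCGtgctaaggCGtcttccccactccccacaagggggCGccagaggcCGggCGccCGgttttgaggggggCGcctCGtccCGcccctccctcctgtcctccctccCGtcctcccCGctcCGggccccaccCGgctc
The window held 18 CG dinucleotides for CAV1, 20 for EHD2 and 4 for CAVIN2, against a median of 11 over 35116 promoters. Another start of CAV1 held 16 and another 29. CAV3, the other gene with few reads, had 5, FLOT1 had 28 and FLOT2 18. CAV2, whose level was near that of EHD2, had 35 and 27 at its 2 starts. PACSIN2 had 24 at its outermost start and 2 to 4 at its 5 other starts. The letters GGGCGG, on either strand, occur in 42.6% of all promoter windows. They occurred 3 times in the window shown for CAV1, and 3 and 2 times at its other starts. EHD2 had 1, FLOT1 8, FLOT2 2, and CAV3 and CAVIN2 none. CAV2 had 6 and 3 at its 2 starts. PACSIN2 had 2 at its outermost start and 0 at its 5 other starts. The LXR element written as AGGTCA, any 4 bases and AGGTCA again (0.0142% of promoters), the sterol element written as TCACNCCAC (0.883%) and TATAAA (10.7%) occurred on neither strand of any window of the 8 genes. These are matches of letters within 250 bases and not sites of binding.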

How the data were processed

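RNA of PC3 cells was analysed in 10 libraries, grouped by the sample titles. Per the labels and methods, total RNA was depleted of ribosomal RNA for stranded libraries (the molecule label says polyA RNA) and read as single reads of 50 bases. The processing notes name hg38, HISAT2 2.1.0 and HTSeq 0.11.2, while the methods name a mouse genome. The table holds human genes.

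The authors deposited RPKM values. Whole reads were recovered with a tolerance of 1e-05 and the authors' gene length as the unknown, for all but 2 genes with reads. The share of whole values was 99.99%. The authors' gene lengths differed from GENCODE 29 for the 9 genes with reads, so levels per length rest on their annotation.

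limma 3.58.1 in R 4.3.3 was run with a trend on log2(RPKM + 0.1) for the 20402 genes that reached a mean of 0.5 RPKM, with Benjamini-Hochberg adjustment over all of them and a threshold of 0.05. Fold changes on this scale understate changes of low genes. The procedure was tested on simulated data. Genes under the filter and ratios were compared by two-sided exact permutation tests over 252 labellings. A planned ratio of CAVIN1 to CAV1 was left out, since CAVIN1 never exceeded 3 reads. The genes and lists were chosen with earlier results of these data known. Named genes are the 10 genes, the ends of each list and list members past the threshold, 4 LXR targets, overlapping genes and the 3 nearest patterns. Marker genes and CAVIN4 are named besides. Between any pair of libraries, chi-square divided by its degrees of freedom was at least 7.48, so no library was a copy of another. Whether equal numbers pair libraries across conditions is not stated in the sources used here. Some values of list members are not reported here.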

Additional observations from a re-analysis of the deposited data

How the results depend on the processing

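None of the 6 tested genes and none of the 28 tested genes of the 4 wider lists was called under any of the 26 alternatives (other pseudocounts, filters and scalings, library weights, covariates, voom and the loss of libraries), and CAV1, CAV2 and EHD2 had a positive and FLOT2 a negative log2 fold change in the 21 of them in which it could move. In the other 5 (both filters, median-of-ratios scaling, the replicate block and no trend) it is the same by construction, and median-of-ratios scaling repeats the reported fit, since the deposited values already hold it. CAV1 had an unadjusted limma p under 0.05 in 2 of the 26, with the component of the reads and without the 3 libraries that stood apart. CAV2 had such a p in 2, with the component of the reads and without GW3965 library 1. Among all tested genes, 2532 of 20402 had such a p with the component of the reads. The numbers were 2044 of 20188 without the 3 libraries and 1492 of 20306 without GW3965 library 1. The number of genes called among all tested genes was 32 and moved to 21 without a filter, 16 with a replicate block, 20 without a trend, 56 with library weights, 63 with voom, 83 with the first principal component as a covariate, and 18 without the 3 libraries that stood apart. With covariates chosen after seeing the data it was 21 for the 7SL share and 146 for the component of the reads. Without single libraries it lay between 17 and 38, and it was 18 without DMSO library 3, 17 without GW3965 library 2 or 4, 19 without GW3965 library 3 and 21 without GW3965 library 5. The cause of these shifts was not tested, and the settings that leave out libraries also hold fewer samples. 
FLOT1 and PACSIN2, both near 0, changed sign. FLOT1 was 0.0166 with scaling by library total, 0.0107 with library weights, 0.0102 with the component of the reads and 0.0154 without the 3 libraries, and lay between -0.0364 and 0.0316 without single libraries. PACSIN2 was 0.0514 with library weights, 0.0093 with the 7SL share and 0.0497 without the 3 libraries, and lay between -0.0686 and 0.0315 without single libraries. The log2 ratio of CAV2 to CAV1 was 0.0023 with a pseudocount of 0.01 and lay between -0.0438 and 0.0412 without single libraries, and that of FLOT2 to FLOT1 between -0.08 and -0.01. CAV1 lay between 0.09 and 0.22, CAV2 between 0.11 and 0.21, EHD2 between 0.16 and 0.21 and FLOT2 between -0.08 and -0.0048 without single libraries. The permutation comparison of CAV3 lay between -0.25 and 0.0699, and that of CAVIN2 between -0.21 and 0.0241, without single libraries. With a pseudocount of 1 the differences in level of FLOT1 over CAV1 (0.12) and of CAV3 over CAVIN2 (0.10) passed the threshold.
Replicate numbers share no stated origin, and the correlation of same-numbered libraries lay between -0.14 and 0.16, with 1 of 5 DMSO libraries closest to its own number. The replicate block changed no call of the 6 genes. Depth limits CAV3 and the cavins, with at most 16 reads a library.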
